A study of Mus musculus with 15 samples.

Results

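SAM68 binding sites that lay within the first 5 kb of long protein-coding genes were examined in 3 lists of sites, from mouse E14 embryonic stem cells at day 0 and from embryoid bodies at day 3 and day 10 of differentiation. A site was taken where the authors had given it the class protein-coding and where its centre fell within 5 kb downstream of the annotated start of its gene, in genes spanning at least 20 kb. This gave 1484 sites in 840 genes on day 0, 1367 sites in 765 genes on day 3 and 3774 sites in 1463 genes on day 10. Together these were 6625 of the 132293 sites of the series, in 1920 of the 5094 genes of 20 kb or more that held any site.

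SAM68, encoded by Khdrbs1, belongs to the STAR proteins (signal transduction and activation of RNA), binds A- and U-rich RNA, with UAAA-type motifs as its best known targets, and takes part in alternative splicing and in the choice of polyadenylation sites. The beginning of a long gene usually holds the first exon, its 5′ splice site and the upstream part of a long first intron. This stretch is the first to leave RNA polymerase II, and it contains GC-rich sequence at many promoters and cryptic splice and polyadenylation sites further into the intron. Embryoid bodies are aggregates in which stem cells leave pluripotency and form derivatives of the germ layers, among them beating heart muscle.

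Binding was mapped by iCLIP2, in which ultraviolet light fixes a protein to RNA in living cells and reverse transcription stops at the crosslinked nucleotide. Day 0 cells were E14 stem cells kept with leukemia inhibitory factor and inhibitors of GSK3 and MEK, day 3 bodies were formed in hanging drops with serum, and day 10 bodies were formed in spheroid plates, so stage and culture format cannot be told apart. All groups came from this 1 cell line, with 5 libraries per day and 15 in all, and no allele or drug other than the culture conditions distinguishes them in the labels. Embryoid bodies are mixtures of cell types, and in such bulk samples fewer cells of a type and less RNA per cell cannot be told apart.

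The authors deposited 1 list per day, with no value for single libraries and no number of crosslinks per site. Neither the depth behind a site nor the spread between replicates can be known from them, and the days were not tested against each other. On day 0, day 3 and day 10 the whole lists numbered 29740, 28266 and 74287 sites, of which 24424, 23677 and 65756 lay in genes of 20 kb or more. Values in parentheses are 95% intervals for counting error alone, and the sites of a gene depend on each other. RNA abundance was not used here. Whether a site was exonic or intronic was not determined, because the gene table used gives only the span of a gene.

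A few sites lay close enough to a listed start for their sequence to be read from the RefSeq promoter table of GRCm38.p6, which runs from 250 nt before to 50 nt after a start. They numbered 18 of the 6625 sites, at 15 positions in 14 genes. The sequences below, chosen after their values were seen, are the positions listed on more than 1 day, those in the splicing regulator gene Rbm25 and the transcription factor gene Meis2, and the 3 nearest to the start of a span. Each is 25 nt of the sense strand, 5′ to 3′, and capitals mark the 5 nt of the called site.
Homer1, listed on all 3 days (chr13:93307880-93307904, plus strand): gtgtgtaaaaAGTGTaccaggcccc
Hnrnpc, listed on day 3 and day 10 (chr14:52103989-52104013, minus strand): tcgggggccaTTTTGtgaggagacg
Meis2, day 10 (chr2:116064784-116064808, minus strand): gcaaagggtaGGTTTaaatctccaa
Rbm25, day 10 (chr12:83635660-83635684, plus strand): ctttaaaaaaAATTAttatttatat
Rbm25, day 10, the adjoining site (chr12:83635667-83635691, plus strand): aaaaattattATTTAtatgagtaca
Zc3h11a, day 10 (chr1:133661365-133661389, minus strand): ccgggcgccaTCTTTgacgctggca
Ywhae, day 3 (chr11:75732902-75732926, plus strand): caggcggaagTCCCGgattgaggcg

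Homer1 encodes a scaffold protein of the postsynaptic density, and its site lay 4135 nt from the start of the span but 142 nt upstream of another listed start of the gene. Hnrnpc encodes an hnRNP protein that itself binds uridine tracts of nascent transcripts, and its site lay 38 nt from the start. The sites of Zc3h11a, a zinc finger protein of mRNA export, and Ywhae, a 14-3-3 adaptor protein, lay 22 and 27 nt from the start.

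The letters TAAA occurred on the sense strand in 3 of the 15 windows (20%, interval 4.33 to 48.1), in Homer1, Meis2 and the first Rbm25 window, against 7.81% of 394212 windows of 25 nt cut from all promoters of the table. TTAA occurred in 2 of 15 (13.3%) against 6.70%, in Meis2 and the first Rbm25 window, which both also hold TAAA. TTTT occurred in 3 of 15 (20%) against 8.31%. All 3 intervals include the share of all promoter windows. The median GC content was 60% in the 15 windows and 52% in all windows. These windows cover only sites next to a listed start and describe none of the others. All 3 windows with TAAA are among the sequences printed above, so the printed ones hold it more often than the rest of the 15.

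The beginning of a gene held fewer sites than the rest of the same gene, most of all in its first 1 kb. The first 5 kb held 6.08% (5.78 to 6.38) of the sites in long genes on day 0, 5.77% (5.48 to 6.08) on day 3 and 5.74% (5.56 to 5.92) on day 10. With each gene set against itself, the number of sites per kb in the first 5 kb was 0.786 times (0.747 to 0.827) that in the remainder on day 0, 0.803 times (0.761 to 0.847) on day 3 and 0.935 times (0.905 to 0.965) on day 10. When the sites and lengths of all genes were pooled in place of this match, the ratios were 1.16, 1.18 and 1.20. Pooling weights genes by their length. The lower density at the 5′ end was therefore seen within genes and not over their pooled sequence. On day 10 the ratio within genes also depended on the setting, and was 1.03 without the first 500 nt and 1.02 for a window of 10 kb.

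The shortage was concentrated next to the start. Within the first 1 kb, 94 sites were listed on day 0, 95 on day 3 and 240 on day 10, against 1390, 1272 and 3534 from 1 to 5 kb. Per kb this was 0.271 times (0.217 to 0.334) the density from 1 to 5 kb on day 0, 0.299 times (0.240 to 0.368) on day 3 and 0.272 times (0.237 to 0.310) on day 10. The interval of each day held the estimates of the other days.

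The first 500 nt held 20, 20 and 45 sites, and the first 100 nt held 0, 3 and 9. The site closest to a start lay 113 nt away on day 0, 27 nt on day 3 and 22 nt on day 10. Per 1000 bound genes and kb, day 0 had 11.7 sites in the first 500 nt, 43.5 from 500 to 1000 nt, 76.9 from 1000 to 1500 nt and 108 from 2000 to 2500 nt. The corresponding day 10 values were 20.8, 90.1, 165 and 222. On each day the density climbed over about 2 kb and then stayed near a level, since 381, 331 and 880 sites lay from 4 to 5 kb and 403, 349 and 888 from 5 to 6 kb on day 0, day 3 and day 10.

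**Figure D1:**
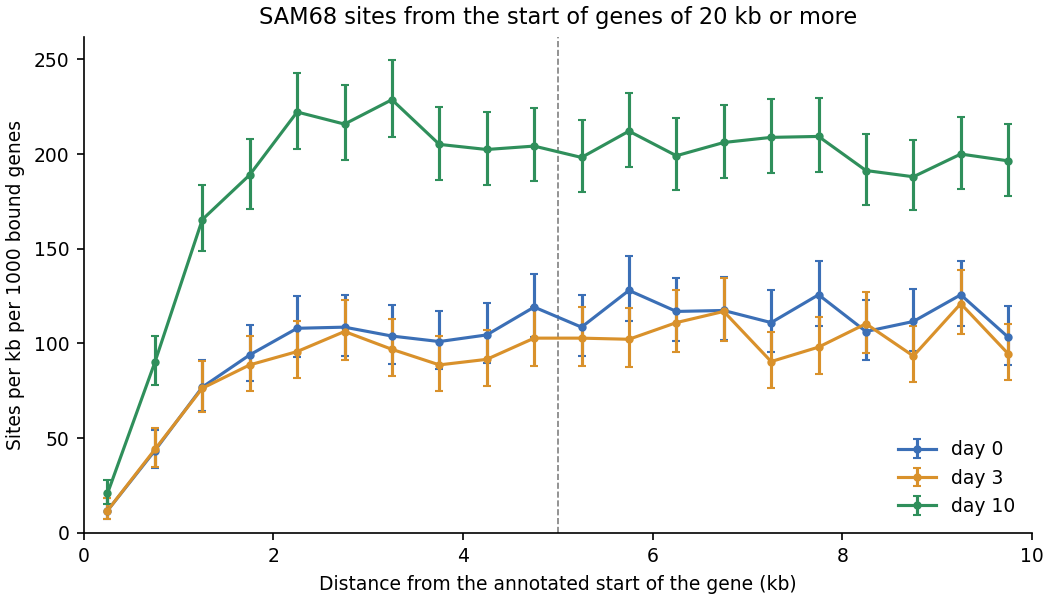
Sites per kb per 1000 genes of 20 kb or more that held a site on that day (vertical axis) by distance from the annotated start in kb (horizontal axis), in steps of 500 nt, with a dashed line at 5 kb. Points are the values of each day's list and bars are exact 95% intervals of counting error. The first step holds 11.7 sites on day 0 and day 3 and 20.8 on day 10, and each day levels off after about 2 kb.

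A span begins at the most upstream start of any listed transcript, which the cells may not use. Among genes with a promoter listed within 100 nt of the start of the span, the density in the first 1 kb was also the lower one, at 0.304, 0.365 and 0.361 times that from 1 to 5 kb on day 0, day 3 and day 10. In the same genes, however, the density of the first 5 kb over the rest was 0.856 on day 3 and 1.00 on day 10. A listed start need not be used in these cells either, so the part played by unused starts was not tested. Per the file headers, sites in overlapping genes had been removed by the authors, which can empty starts that overlap a neighbour. Among the 4043 genes whose first 5 kb overlaps no other RefSeq gene, the ratios were 0.269, 0.300 and 0.265.

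The share of sites in the first 5 kb followed gene length, as it must when the window is fixed. It was 12.6%, 12.2% and 13.6% in genes of 20 to 50 kb on day 0, day 3 and day 10, and 2.19%, 2.41% and 2.59% in genes of 100 kb or more. The density ratio within genes separated the days more. In genes of 20 to 50 kb it was 0.774, 0.746 and 0.868, in genes of 50 to 100 kb 0.805, 0.831 and 0.943, and in genes of 100 kb or more 0.791, 0.911 and 1.05. In each of these length classes the day 10 ratio was above those of day 0 and day 3, and in the longest genes of day 10 it was above 1.

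Genes often had a single site in the window. Of genes with a site there, 530 of 840 (63.1%) had only 1 on day 0, 447 of 765 (58.4%) on day 3 and 659 of 1463 (45.0%) on day 10. The genes with 5 or more numbered 48, 30 and 217, and the most in a gene was 13, 14 and 18.

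Over the 3 lists, the 10 genes with most sites at their 5′ end were Rbpms, Rbm39, Ube2k, Nedd4, Papola, Luc7l2, Taf15, Rbbp6, Tecr and Serbp1. Rbpms, which encodes an RNA-binding protein that acts on splicing in muscle cells, had 6, 14 and 18 sites in its first 5 kb (day 0, day 3, day 10), out of 60, 149 and 201 in the whole gene (GRCm38 chr8:33782643-33929922, minus strand). Rbm39, which encodes a splicing factor related to U2AF2, held 10, 8 and 11 of its 41, 35 and 61 sites there. In number, Rbpms thus gained 5′ sites along with the rest of the gene, while Rbm39 was close to level. The day 10 list is the longest, and relative to all 5′ sites of a list the picture differed. For day 10 against day 0 the ratio of shares was 1.18 (0.449 to 3.63) in Rbpms and 0.433 (0.167 to 1.14) in Rbm39. Both intervals include 1.

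Taf15, a member of the FET family of RNA-binding proteins, held 10, 3 and 10 sites. Luc7l2, a protein of the U1 small nuclear ribonucleoprotein, held 5, 7 and 11, and Serbp1, an mRNA- and ribosome-binding protein, 7, 8 and 7. Day 3 was lowest for Taf15 and highest for Serbp1, so the order of days was not shared. Papola, the canonical nuclear poly(A) polymerase, held 7, 6 and 12 sites, Rbbp6, a subunit of the cleavage and polyadenylation machinery, 6, 6 and 11, and Pcf11, which acts in cleavage and transcription termination, 5, 1 and 13. All 3 had their highest number on day 10, in the longest list. Pcf11 is not among the 10 genes but has a high share of its sites at the 5′ end.

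Ube2k, a ubiquitin-conjugating enzyme, had 7, 7 and 13 sites in the window over the same days, and Nedd4, a HECT-type ubiquitin ligase, 4, 4 and 18. Tecr, the enzyme that completes each cycle of very-long-chain fatty acid elongation, held 9, 3 and 11. Tecr was the most 5′-weighted of the 10 genes with most sites, with 23 of its 38 sites (60.5%) in the first 5 kb of a gene of 22.8 kb. In Rbbp6 the share was 37.7% and in Serbp1 37.3%, while in Rbpms it was 9.27%.

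**Figure D2:**
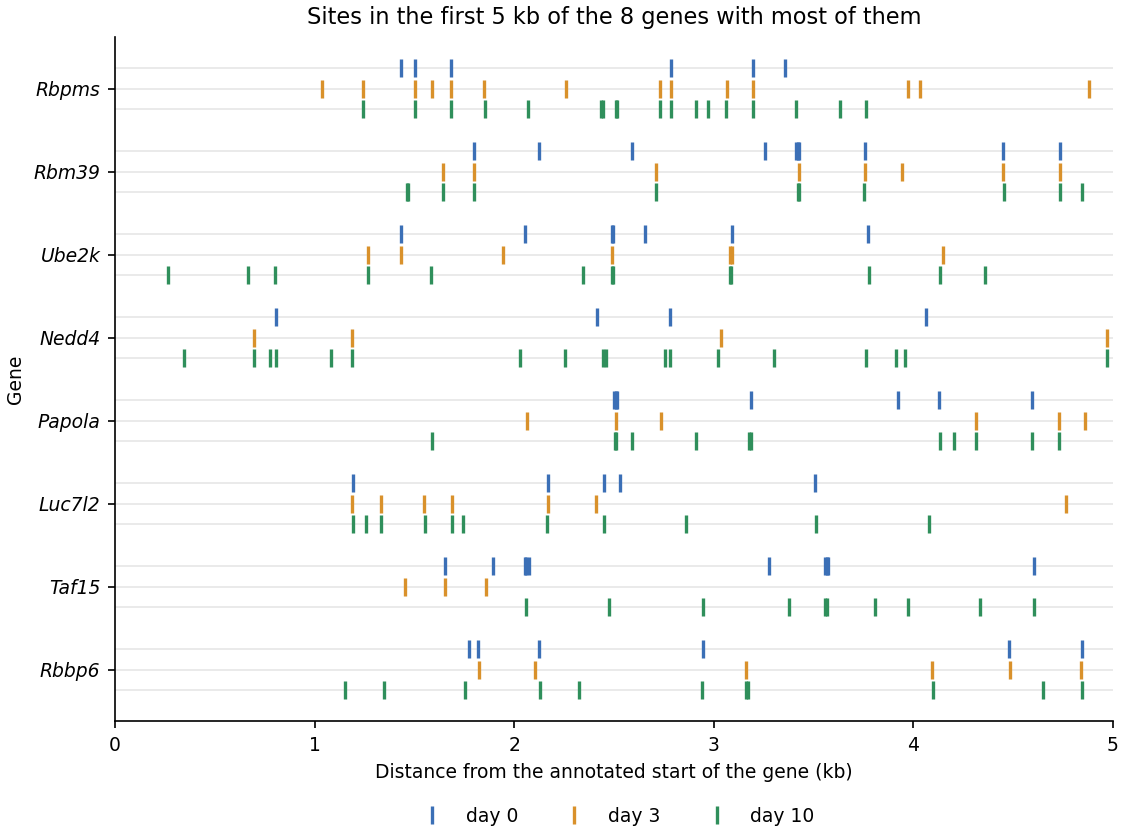
Each vertical mark is a SAM68 site in 1 of the 8 genes with most sites in the first 5 kb, placed by its distance in kb from the annotated start (horizontal axis), with the lists of day 0, day 3 and day 10 from top to bottom within a gene. Marks that line up between rows are positions listed on more than 1 day, as at 4737 nt in Rbm39 on all 3 days. Ube2k and Nedd4 have marks within 500 nt of the start on day 10, at 265 and 348 nt.

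In some genes most of the listed sites were at the 5′ end. Among genes that held 10 sites or more in all, the highest share was in Ccnk, which encodes cyclin K, the partner of CDK12 and CDK13, with 9 of 10 sites (90%) in its first 5 kb. Gmeb2, a DNA-binding protein of glucocorticoid-responsive elements, followed with 10 of 12 (83.3%), Zfp444, a zinc finger protein, with 9 of 11 (81.8%), and Foxk2, a forkhead transcription factor, with 8 of 10 (80%). Ccnk and Zfp444 span 24.1 and 20.6 kb, so the window is a large part of these genes.

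Uspl1, a SUMO-specific protease, had 10 of 13 sites (76.9%) in the window, Svop, a protein related to synaptic vesicle transporters, 10 of 14 (71.4%), Pcf11 19 of 27 (70.4%), Gabbr1, a GABA B receptor subunit, 11 of 17 (64.7%), Dnttip1, a subunit of a histone deacetylase complex, 7 of 11 (63.6%) and Pdia5, a disulfide isomerase of the endoplasmic reticulum, 19 of 30 (63.3%). Pdia5 spans 93.6 kb and Svop 64.5 kb, and there the window is a small part of the gene. These 10 genes were ranked by this share, so the values describe them and test nothing.

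Positions at the 5′ end were seen again in another list slightly more often than the other sites of the same genes when sites were pooled, but not in every pair of days when each gene was set against itself. A site was counted as found again when it shared at least 1 nt with a site of the other list on the same strand. Of the 1484 day 0 sites in the first 5 kb, 260 (17.5%) were found again on day 3, against 1394 of 8847 (15.8%) of the other sites of the same genes, and 16.4% of all day 0 sites in long genes. The difference was 1.76 percentage points (-0.242 to 3.91). On day 10, 343 of the day 0 sites (23.1%) were found again, against 1973 (22.3%) of the other sites of the same genes and 23.6% of all sites, a difference of 0.812 points (-1.44 to 3.18). Both intervals include 0.

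Of the 1367 day 3 sites in the first 5 kb, 370 (27.1%) were found again on day 10, against 1985 of 8128 (24.4%) of the other sites of the same genes and 25.2% of all day 3 sites. This difference of 2.65 points (0.168 to 5.23) excluded 0 by its counting interval alone. Against only the sites 5 to 10 kb from the start of the same genes, the pooled differences were 1.02 points for day 0 sites on day 3, -0.306 for day 0 sites on day 10 and 1.26 for day 3 sites on day 10. Compared gene by gene, over the 731 or 673 genes with sites of both kinds, the differences were -0.270 points for day 0 sites on day 3, -2.39 for day 0 sites on day 10 and 1.36 for day 3 sites on day 10. The sign thus turned for the day 0 sites.

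Read in the other direction, 18.9% of the day 3 sites in the first 5 kb were found on day 0, against 15.8% of the other sites of the same genes, a difference of 3.14 points (0.990 to 5.44). For day 10 sites found on day 0 the values were 9.19% and 8.12%, a difference of 1.08 points (0.151 to 2.08), and for day 10 sites found on day 3 they were 9.80% and 8.59%, a difference of 1.21 points (0.257 to 2.24). All 6 pooled differences were above 0, and 4 of their counting intervals excluded 0. The 2 directions of a pair count largely the same matches, so these are not 6 independent comparisons. Gene by gene the 3 differences in this other direction were 1.44, -1.73 and -1.10 points, so the sign turned for both sets of day 10 sites.

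**Figure D3:**
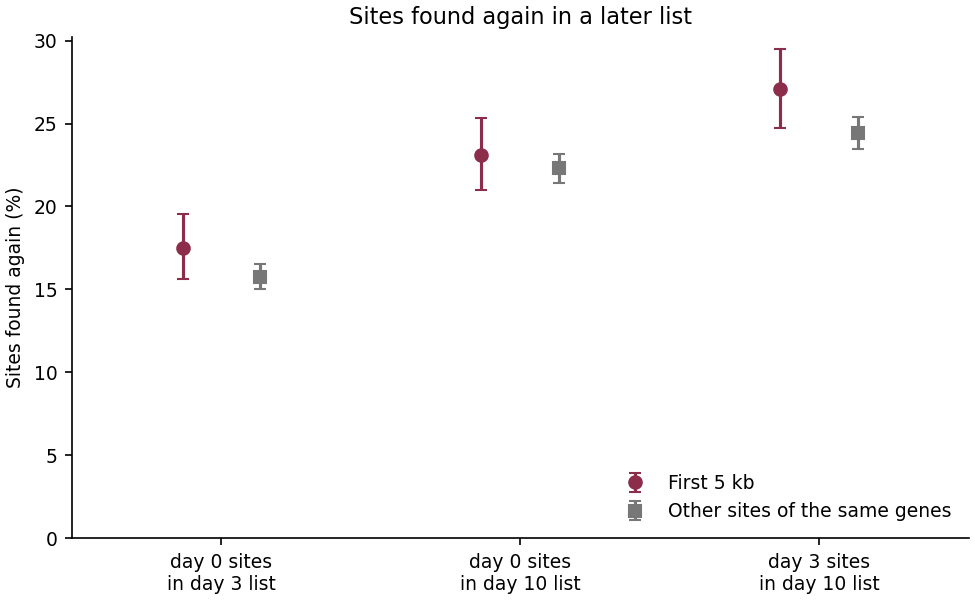
Percent of sites found again in a later list (vertical axis) for each pair of days, for sites in the first 5 kb (circles) and for the other sites of the same genes (squares). Bars are exact 95% intervals of counting error. The values are 17.5% and 15.8% for day 0 sites on day 3, 23.1% and 22.3% for day 0 sites on day 10, and 27.1% and 24.4% for day 3 sites on day 10.

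Within the window, fewer of the sites in the first 1 kb than of those from 1 to 5 kb were found again, on small numbers. Of the 94 day 0 sites there, 12 (12.8%, 6.77 to 21.2) were found again on day 3 and 14 (14.9%, 8.39 to 23.7) on day 10, against 17.8% (15.9 to 20.0) and 23.7% (21.5 to 26.0) from 1 to 5 kb. Of the 95 day 3 sites in the first 1 kb, 22 (23.2%, 15.1 to 32.9) were found again on day 10, against 27.4% (24.9 to 29.9) from 1 to 5 kb. The intervals of each pair overlap. Most 5′ sites belonged to a single list, with 1032 (69.5%) on day 0, 888 (65.0%) on day 3 and 3207 (85.0%) on day 10. This share was not computed for the other sites of these genes or for all sites, so it cannot be called particular to the 5′ end. Of all day 0 sites in long genes, 16.4% were found again on day 3 and 23.6% on day 10, and the day 10 list is the longest.

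A subset of positions was bound on every day. Of the day 0 sites in the first 5 kb, 151 (10.2%, 8.68 to 11.8) lay in 127 genes and were also listed on day 3 and day 10, against 771 of 8847 (8.72%, 8.14 to 9.32) of the other sites of the same genes. Rbm39 held 6 of these positions, at 1797, 3424, 3429, 3758, 4452 and 4737 nt from its start. Rbpms held 4 of the 151 positions, at 1503, 1682, 2786 and 3197 nt. Supt20, a subunit of the SAGA coactivator complex, held 3, at 1243, 1443 and 3315 nt. Ube2k, Papola, Luc7l2, Caprin1, Nop58, Eif2s2 and Ube4b held 2 each, as did other genes. These encode proteins of ubiquitin transfer (Ube2k, Ube4b), polyadenylation (Papola), splicing (Luc7l2), stress granules (Caprin1), box C/D small nucleolar ribonucleoproteins (Nop58) and translation initiation (Eif2s2).

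In the first 1 kb only 4 of the 94 day 0 sites (4.26%, 1.17 to 10.5) were on all 3 lists. Among them, and named here after their values were seen, were sites 204 nt from the start of Msi2, a Musashi RNA-binding protein, 648 nt from that of Fbf1, a protein of centriole distal appendages, and 659 nt from that of Mtf2, an accessory subunit of Polycomb repressive complex 2.

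Close neighbours were fewer among sites at the 5′ end than among the other sites of the same genes on day 0, and on day 3 and day 10 the interval of the difference included 0. A neighbour was another site of the same list and gene with its centre within 50 nt. In the first 5 kb, 96 of 1484 sites (6.47%) had one on day 0, against 8.64% of the other sites of the same genes and 7.92% of all sites. On day 3, 63 of 1367 (4.61%) had one, against 5.87% of the others and 5.78% of all, and on day 10, 511 of 3774 (13.5%), against 12.7% and 12.1%. The differences from the other sites were -2.17 points (-3.46 to -0.686) on day 0, -1.26 (-2.38 to 0.0776) on day 3 and 0.847 (-0.264 to 2.03) on day 10. Against sites 5 to 10 kb from the start of the same genes, of which 5.83%, 4.56% and 13.5% had a neighbour, the day 0 difference turned to 0.639, so the shortage on day 0 was relative to sites deeper in the genes. Within 20 nt, 9.06% of the day 10 sites in the first 5 kb had a neighbour, against 7.86% of the other sites. Sharing a position and having a close neighbour are both commoner in a longer list, and the day 10 list is the longest.

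At a wider distance the 5′ sites stood further apart. Within 1000 nt, 49.9%, 49.8% and 71.4% of the sites in the first 5 kb had a neighbour on day 0, day 3 and day 10, against 62.9%, 57.0% and 76.8% of the other sites and 68.5%, 64.8% and 80.4% of those from 5 to 10 kb. A site near the start can have neighbours on 1 side only, and its neighbours would lie in the sparse first 1 kb, so part of this gap is built into the measure. The compared genes were also chosen for holding a 5′ site. Each of the other sites therefore had a second site in its gene, which a 5′ site need not have. On day 0, 731 of the 840 genes with a 5′ site also held other sites. This applies at every neighbour distance, 50 nt included, and neighbour differences were not computed gene by gene.

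**Figure D4:**
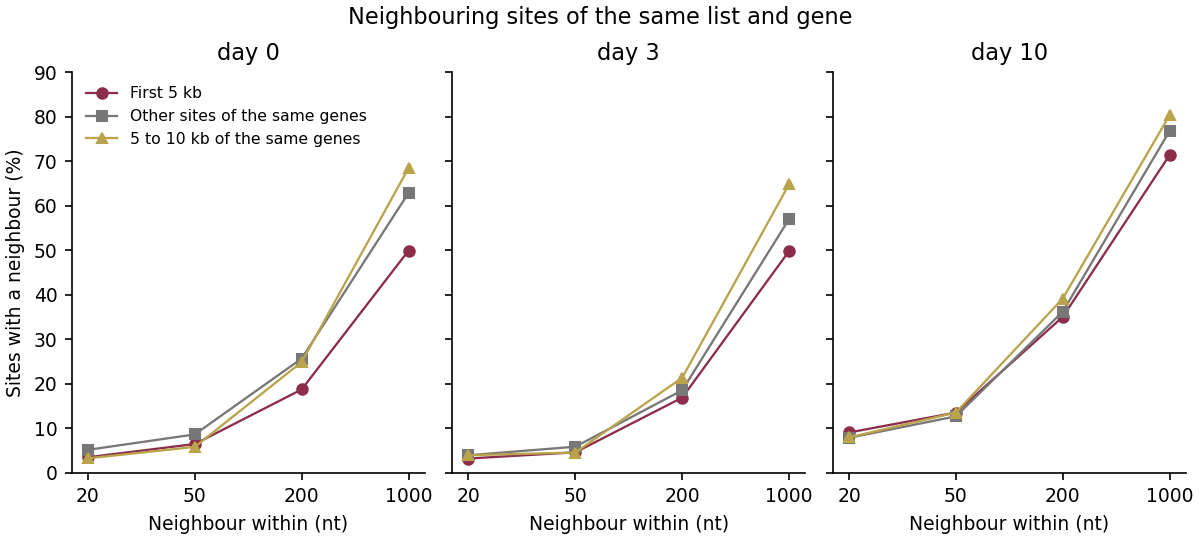
Percent of sites with another site of the same list and gene (vertical axis) within 20, 50, 200 or 1000 nt (horizontal axis, evenly spaced and not to scale), in a panel for each day, for sites in the first 5 kb (circles), the other sites of the same genes (squares) and the sites 5 to 10 kb from the start of the same genes (triangles). At 50 nt the values on day 10 are 13.5%, 12.7% and 13.5%, and at 1000 nt the first 5 kb is the lowest of the 3 on each day.

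Runs of 3 or more sites with gaps of at most 50 nt were rare, with 4 on day 0, none on day 3 and 13 on day 10. The longest had 4 sites, both on day 10. In Tut4, a terminal uridylyltransferase, the centres ran over chr4:108463316-108463399 on the plus strand, 3906 to 3989 nt from the start, and in Dnajc1, a cochaperone of the endoplasmic reticulum, over chr2:18389246-18389280 on the minus strand, 4819 to 4853 nt from the start. Tut4 held 1, 1 and 15 sites in its window on the 3 days, and Dnajc1 1, 1 and 7.

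The day 0 runs of 3 sites were in genes already named for their site numbers. Rbm39 had 1 at 3412 to 3429 nt, in which 2 of the positions on all 3 lists lie, Taf15 had 2, at 2053 to 2075 and 3558 to 3574 nt, and Papola had 1 at 2502 to 2515 nt. In Papola the positions 2510 and 2515 nt were also counted on all lists. On day 3, however, a single site matched both positions of each gene, at 3425 nt in Rbm39 and 2511 nt in Papola. The neighbouring positions of these day 0 runs were thus not listed separately on day 3.

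The genes with 5′ sites overlapped between days about as the genes with sites from 5 to 10 kb did. Day 3 and day 0 shared 422 genes, which is 55.2% of the day 3 and 50.2% of the day 0 genes, and day 10 and day 0 shared 533, which is 36.4% of the day 10 and 63.5% of the day 0 genes. Day 10 and day 3 shared 545, which is 37.3% of the day 10 and 71.2% of the day 3 genes. For the window from 5 to 10 kb, the shares were 55.1% and 51.0%, 40.6% and 63.8%, and 41.1% and 69.9%. In all, 352 of 1920 genes (18.3%) had a 5′ site on every day, against 402 of 2094 (19.2%) for the next window.

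A gene that gained or lost 5′ sites was mostly bound elsewhere on the other day. Of 930 genes with a 5′ site on day 10 and none on day 0, 565 (60.8%) held other sites on day 0. Of 307 genes with a 5′ site on day 0 and none on day 10, 211 (68.7%) held other sites on day 10. For the window from 5 to 10 kb the values were 59.4% and 66.7%, so the 5′ end was not set apart from the next stretch in this respect.

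Per gene, the share of a list's 5′ sites was compared between days, and a gene was called if 1 lay outside the exact interval for that ratio. For day 10 against day 0, 1 of 1770 genes had a larger share (0.0565%) and 48 a smaller one (2.71%), against 0.781% larger and 1.61% smaller among genes with sites from 5 to 10 kb. For day 10 against day 3, 2 of 1683 were larger (0.119%) and 30 smaller (1.78%), against 0.272% and 2.01%. For day 3 against day 0, 2 of 1183 were larger and 2 smaller (0.169% each), against 0.711% and 0.356%. Because the day 10 list is longer, 3 sites on day 0 without any on day 10 made a call, while 11 sites on day 10 without any on day 0 did not, so list length by itself favours smaller calls. The calls describe the lists and are no test between days.

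The larger calls for day 10 were in 2 genes. Efna5, which encodes ephrin-A5, a ligand that guides cells and axons, had all 13 sites of its first 5 kb on day 10, and in the whole gene 211 on day 10, 7 on day 3 and 0 on day 0. Plagl1, an imprinted zinc finger gene, held 14 on day 10, none on day 3 and 1 on day 0. Its call was against day 3 alone.

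Genes at a similar number that were not called included Prickle1, a planar cell polarity protein, whose 11 sites were all on day 10. Peg3, an imprinted zinc finger gene, and Maml3, a Notch coactivator, held 10 on day 10 and none earlier. Hmga2, an architectural chromatin protein, held 11 on day 10, none on day 3 and 1 on day 0, and Krit1, a junction protein of blood vessels, 10, 2 and 0. In each of these the whole gene also had its most sites on day 10, for example 85, 0 and 0 in Prickle1 on day 10, day 3 and day 0.

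The smaller calls for day 10 against day 0 included Mybl2, Bcat1, Terf1, Zfp980, Zfp990, Dido1, Ash2l and Cmtm7. Mybl2, a transcription factor of the cell cycle, held 3 sites on day 10 and 13 on day 0, a ratio of shares of 0.0907 (0.0166 to 0.33). Bcat1, the cytosolic aminotransferase of branched-chain amino acids, and Terf1, a telomeric repeat-binding protein, held none on day 10 and 6 on day 0. In Bcat1 the whole gene held 0 sites on day 10, 2 on day 3 and 67 on day 0, and in Terf1 8, 17 and 27.

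Zfp980 and Zfp990, both zinc finger genes, held no 5′ site on day 10, against 6 and 5 on day 0, and Dido1, a chromatin-associated protein, none against 5. The whole Dido1 gene held 23 sites on day 10 against 22 on day 0. Ash2l, a core subunit of histone H3 lysine methyltransferases, and Cmtm7, a membrane protein, had no 5′ site on day 10 or day 3, against 5 on day 0. For day 3 against day 0 the smaller calls were Mybl2, with 3 against 13 sites, and Bcat1, with 0 against 6.

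Some genes differed on day 3. Jmjd1c, a Jumonji-domain chromatin protein, had 8 sites in its first 5 kb on day 3 against 0 on day 0, and Slc2a1, the glucose transporter GLUT1, 7 against 0. Both were called larger for day 3 against day 0. On day 10 Jmjd1c held 1 site, a smaller share than on day 3, and Slc2a1 held 6. Sulf1, an extracellular enzyme that edits heparan sulfate, and Usp28, a deubiquitinase, had 0 sites on day 10 against 5 on day 3, also smaller shares. Klhl24, a ubiquitin ligase adaptor, and Rtn3, a reticulon of the endoplasmic reticulum, had 6 and 5 sites on day 3 against 1 each on day 0, were not called, and held 6 each on day 10.

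Lists of genes by function were set beside all long genes, of which 37.7% had a 5′ site on some day and 5.82% of sites lay in the first 5 kb. Of 29 splicing genes of 20 kb or more with a site, 19 (65.5%) had 1 at the 5′ end, with 50 sites on day 0, 38 on day 3 and 85 on day 10, and 8.90% of all their sites lay there. Their median span of 33.5 kb was shorter than the 58.0 kb of all genes, and within genes the density ratio was 0.837, near the 0.869 of all genes. Hnrnpc held 4, 3 and 13 5′ sites, Srsf4, an SR protein, 5, 4 and 10, and Rbm25, a U1-associated splicing regulator, 7, 5 and 7. Tra2b, an SR-related splicing activator, held 2, 4 and 6, and Ptbp2, the neuronal polypyrimidine tract protein, 0, 3 and 6. Among STAR genes 1 of 4 had a 5′ site, Qk, which encodes Quaking, with 4, 2 and 6 sites.

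Of 9 pluripotency genes of this length, 7 had a 5′ site. The 5′ end held 16, 8 and 9 of the list's 255, 120 and 82 sites on day 0, day 3 and day 10. Tfcp2l1, a transcription factor of the naive state, held 4, 0 and 0, with 35, 0 and 1 in the whole gene. Rif1, a telomere and replication timing protein, held 5, 2 and 1, and Jarid2, a Polycomb cofactor, 4, 3 and 5. In the primed state list all 7 sites were on day 3, 4 in Fgf5, a growth factor of the post-implantation epiblast, and 3 in Dnmt3b, a de novo DNA methyltransferase. Other pluripotency members had 5′ sites on several days, with 1, 0 and 2 in Tet2, an enzyme that oxidises methylated cytosine, and 1, 1 and 1 in Trim71, an RNA-binding protein, while Lin28b, which blocks let-7 maturation, had 0, 2 and 0.

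Mesoderm and cardiac transcription factors held 1, 0 and 26 of their 111, 88 and 1161 sites at the 5′ end, in 7 of 14 genes. The rise on day 10 was thus one of the whole genes. Tbx20, a T-box factor of the heart, held 0, 0 and 5, Meis1 and Meis2, homeodomain transcription factors, 0, 0 and 4 each, and Gata6 0, 0 and 3. Gata4, a zinc finger factor of heart and endoderm, held 1 on day 10, although the whole gene had 111 sites on that day. Of the sites in this list 1.99% lay in the first 5 kb, and the density ratio was 0.594, below that of all genes.

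Sarcomere and Z-disc genes held 0, 2 and 15 of their 28, 22 and 235 sites at the 5′ end, in 3 of 13 genes. Tpm1, which encodes the tropomyosin of striated muscle, held 0, 1 and 9, Pdlim5, a Z-disc scaffold, 0, 1 and 3, and Synpo2, an actin-binding Z-disc protein, 0, 0 and 3. Genes of calcium handling and ion channels were nearly free of 5′ sites. Only 3 of their 800 sites (0.375%) lay there, 2 in Ryr2, which releases calcium from the sarcoplasmic reticulum, and 1 in Cacna1d, a calcium channel subunit, all on day 10. Their median span was 365 kb, but the density ratio within genes, 0.169, was also the lowest of the lists.

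Matrix genes held 2, 2 and 27 of their 57, 71 and 1671 sites at the 5′ end, in 9 of 16 genes. In Gpc6 and Gpc3, both glypicans, 7 and 4 of the 919 and 459 day 10 sites lay in the first 5 kb, and in Ptn, the growth factor pleiotrophin, 4 of 77. Endoderm and basement membrane genes held 3, 5 and 27 of their 50, 54 and 478 sites there, in 8 of 12 genes. Among them were Col4a1, a collagen IV chain, with 0, 0 and 9, Lamc1, a laminin chain, with 2, 1 and 7, and Sparc, a matrix glycoprotein, with 0, 0 and 5. The density ratio was 0.871 for the matrix list and 1.03 for the endoderm list.

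Signalling genes had the highest density ratio of the lists, 1.34, with the pluripotency list close to it at 1.285. No interval is given for the ratios of the lists. Of the 188, 208 and 1051 sites of the signalling genes, 9, 16 and 57 lay at the 5′ end, in 16 of 28 genes. Maml3 contributed 10 of these 5′ sites, Smad1, a BMP effector, 1, 2 and 7, and Apc, a scaffold of the β-catenin destruction complex, 3, 3 and 4. Ctnnb1, which encodes β-catenin, held 2, 3 and 4, Smad2, a TGF-β effector, 1, 1 and 4, and Rbpj, the DNA-binding partner of Notch, 2, 3 and 0. Rbpj ran against the list, since it had no 5′ site on day 10 and its whole gene held 45, 23 and 14 sites.

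Chromatin regulators held 24, 21 and 45 sites, in 21 of 43 genes, with a density ratio of 0.709. Setd5, a SET-domain protein, held 3, 3 and 7, and Suz12, a core subunit of Polycomb repressive complex 2, 6, 2 and 2. Suz12 was among the smaller calls for day 10 against day 0. Neural genes had 4, 0 and 2 sites, with 4 on day 0 in Stmn2, a microtubule-destabilising protein of neurons, and 2 on day 10 in Ncam1. Endothelial and blood genes had 1, 0 and 1, in Kit and Flt1. Of 14 listed transcripts reported as SAM68 targets, 6 were genes of 20 kb or more that held a site. Among these, Sgce, which encodes epsilon-sarcoglycan, held 0, 0 and 6 sites at its 5′ end, and the other 5 held none there.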

How the data were processed

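The authors deposited 1 list of 5 nt sites per day, made from 5 iCLIP2 libraries, with positions, strand, Ensembl gene ID and gene class; per the file headers, each had been given to a gene and those where genes overlap had been taken out. The deposited score is 0 at every site and was not used. The submitters' processing notes name STAR 2.7.11a, UMI-tools 1.1.6, bedtools 2.31.1, SAMtools 1.22.1, FastQC 0.12.1, MultiQC 1.31 and GRCm38.p5; the sources used here do not give the site caller or how libraries were combined.

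IDs were matched by position to RefSeq protein-coding genes of GRCm38.p6, taking the gene whose span held at least 80% of the sites of an ID. This named 7145 of 7380 protein-coding IDs (96.8%); 188 had no candidate, 31 had several and 16 shared a symbol. Distances run from the start of the RefSeq span by strand. Density ratios are Mantel-Haenszel ratios with each gene a stratum, shares have exact binomial 95% intervals, differences Newcombe intervals, and ratios of shares exact conditional binomial intervals. Log2 ratios used a pseudocount of 1 and only ranked genes for naming. Steps were tested on simulated data. Python 3.11.15, NumPy 2.4.6, pandas 2.3.3, SciPy 1.17.1 and matplotlib 3.10.9 were used.

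The window, gene lists and naming rule were chosen with earlier results of these data known. Named genes are the 10 with most 5′ sites, the 5 with most per day, the 5 largest and 5 smallest ratios per pair of days among genes holding 5 or more such sites, the 10 with most positions in all lists, the 10 highest shares at the 5′ end among genes with at least 10 sites, the 5 longest runs, and up to 3 members with most 5′ sites per gene list; further list members and the genes of the printed sequences were named after their values were seen. Alternatives varied the window, gene length, overlap rule, neighbour distance, comparison sites and gene matching. Some named genes are not reported here.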

Additional observations from a re-analysis of the deposited data

How the results depend on the processing

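With a window of 2 kb, the share of sites on day 0, day 3 and day 10 was 1.58%, 1.59% and 1.53%, the density ratio 0.511, 0.553 and 0.617, and the genes with a site 294, 289 and 606. There the neighbour difference on day 3 was 0.464 points, 14.7% of day 10 sites had a neighbour, and the difference for day 0 sites found on day 10 was 3.96 points. With a window of 10 kb, the shares were 14.1%, 13.3% and 12.4%, the ratios 0.920, 0.928 and 1.02, and the genes on day 0 and day 3 numbered 1439 and 1326. In genes of 50 kb or more, the shares were 3.70%, 3.75% and 3.93%, the genes 387, 381 and 816, the ratios of day 3 and day 10 were 0.862 and 0.988, and 3.55% of day 3 sites had a neighbour. Without the first 500 nt, the ratios were 0.862, 0.879 and 1.03, so leaving out that stretch took the day 10 ratio above 1. Low density on day 10 was not confined to it. Per kb and 1000 bound genes there were 90.1 sites from 500 to 1000 nt, against 198 from 5000 to 5500 nt.

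Requiring the same 5 nt position, 8.96% and 10.4% of day 0 sites were found on day 3 and day 10, and 11.6% of day 3 sites on day 10. With centres within 50 nt these were 22.2%, 29.8% and 33.6%, and within 10 nt the share of day 0 sites on day 10 was 25.5%. In genes with a site on both days, day 0 sites were found on day 3 and day 10 at 19.6% and 25.8%. With each gene a stratum, the differences of day 0 sites turned to -0.270 and -2.39 points. A neighbour within 20 nt was found for 3.50%, 3.22% and 9.06% of sites, and within 200 nt for 18.7%, 16.9% and 35.0%, with differences of -6.95 points on day 0 and -1.18 on day 10. Against sites from 5 to 10 kb, the day 0 neighbour difference was 0.639.

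The gene-by-gene differences and the next 3 alternatives were chosen after the data were seen. With a listed start within 100 nt, the shares were 7.02%, 7.04% and 6.99%, the ratio of day 3 was 0.856 and that of day 10 was 1.00, 5.94% of day 3 sites had a neighbour with a difference of 0.527 points, and the difference for day 0 sites found on day 10 was 3.30 points. With genes pooled, the ratios were 1.16, 1.18 and 1.20. In genes without an overlap of the first 5 kb, the day 10 ratio was 0.976. Leaving out the 5 genes with most sites, or IDs with a site outside the span, moved no value beyond its counting interval. The causes were not tested. No paired analysis was possible because the lists hold no values for single libraries.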
